A study of Mus musculus with 14 samples.

Results

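The genes described here are 32 genes of the peroxisome, chosen by symbol and all present among the 19505 named genes of the arrays, 1 array row each. Of these, 13 are peroxins (Pex genes), which build peroxisomes, and 19 encode the transporters and enzymes that carry out fatty acid oxidation inside them. Liver RNA came from male C57BL/6-background mice with both Prkaa1 and Prkaa2 floxed, the genes of the 2 catalytic alpha subunits of the energy-sensing kinase AMPK. All mice ate a high-fat diet from 6 weeks of age and at 10 weeks received an AAV8 vector with the TBG promoter, known as a hepatocyte-directed promoter, into the jugular vein. The vector was empty in the 6 control samples, labelled WT, and carried Cre recombinase in the 8 knockout samples. Every animal, controls included, then had 3 weeks of metformin, which lowers blood glucose, at 50 mg/kg each day, and was fasted for 16 h before the liver was taken. The labels give the age as 4 months. Because Cre was directed to hepatocytes, the other liver cells keep the floxed genes, and livers without metformin were not analysed here. Nothing in the labels says that each sample is a separate mouse, and the spread that p-values rest on may therefore be technical.

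Peroxisomes are single-membrane organelles that shorten very long chain and branched fatty acids, dicarboxylic acids and the side chain of bile acid precursors, with hydrogen peroxide as a by-product. Peroxins insert the membrane proteins, import the folded enzymes from the cytosol and divide the organelle. In rodent liver many genes of peroxisomal oxidation are targets of PPAR alpha, a nuclear receptor activated by fatty acids in fasting.

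The values are log2 array signals, and each gene's row measures that gene against itself, so levels of different genes were not ranked. The 14 arrays formed 2 sets that the labels do not name, seen in the correlations over all rows (0.988 to 0.994 within a set, 0.951 to 0.963 across sets). Control 1 to 3 were in set 1 with knockout 1 to 4, and control 4 to 6 were in set 2 with knockout 5 to 8. The description numbers of knockout 7 and 8 are those of knockout 5 and 6, and without knockout 7 and 8 the members called were Pex11a (0.575, limma adjusted p = 0.0211) and Ehhadh (0.65, limma adjusted p = 0.0391). All differences below are knockout minus control from a limma fit over all 19505 genes with the array set as a term. "Rose" is used of genes with a Benjamini-Hochberg adjusted p under 0.05 over all genes in that fit. The targeted genes were lower in all 8 knockout arrays than in every control array of their set. The differences were -1.13 ± 0.08 for Prkaa2 (SE, limma adjusted p = 1.92e-06) and -0.67 ± 0.13 for Prkaa1 (SE, limma adjusted p = 0.0302). The Prkaa1 call was lost without any 1 of 8 arrays (limma adjusted p up to 0.0770). These were control 1, 2, 4, 5 and 6 and knockout 2, 4 and 5. The 8 measured hepatocyte markers averaged 12.43 to 12.97 on every array, with a median difference of 0.013 and none called. Their differences ran from -0.038 to 0.232, and 1 was higher at an unadjusted p under 0.05 in limma. Rows as bright as that of Alb (mean 13.67) may respond less than in proportion, which was not tested. None of the markers of liver endothelium (10), stellate cells (10), macrophages (9), bile duct (6), adipocytes (5) or lymphocytes (7) was called either. Their median differences were 0.003, -0.077, 0.052, -0.024, 0.125 and 0.146 in that order, so the lymphocyte list (6 of 7 positive, 1 at an unadjusted p under 0.05) and the adipocyte list (3 of 5 positive) had medians at least as large as that of the peroxisomal enzymes given below. Of these markers 6 of the 7 for lymphocytes and 4 of the 5 for adipocytes had means below every array's median, and their part in the results was not tested. In set 1 the endothelial list averaged 7.00 to 8.07 in controls and 7.37 to 7.92 in knockouts, and in set 2 it averaged 7.58 to 8.27 and 7.90 to 8.28. In such bulk tissue, fewer cells of a type and less RNA per cell cannot be told apart.

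In the knockout livers 3 of the 32 genes rose and none fell: Ehhadh, the L-bifunctional enzyme of peroxisomal beta-oxidation, Pex11a, a peroxisome division factor, and Hsd17b4, the D-bifunctional enzyme. Over all genes 137 of 19505 (0.702%) were called, 84 (0.431%) higher and 53 (0.272%) lower. Of the 19 enzymes and transporters 17 had a positive difference, with a median of 0.115, and 2 rose. Of the 13 peroxins 9 were positive, with a median of 0.052, and 1 rose. Among all genes 50.6% were positive, with a median of 0.002. The peroxin rows had means of 5.40 to 10.82 and a median SE of 0.080, and the enzyme rows 7.17 to 13.18 and 0.066. Whether this gap in signal and precision bears on the counts and medians of the lists was not tested. At an unadjusted p under 0.05, 8 enzymes were higher and 1 lower, and 2 peroxins were higher and none lower, against 5.53% of all genes higher and 4.83% lower. Without a term for the array set limma called 0 of the 19505 genes (340 higher and 315 lower at an unadjusted p under 0.05), and 5 of the 32 members were higher and 0 lower at an unadjusted p under 0.05. The set gap then counts as spread within each group: the median SE over the members was 0.073 with the set term and 0.162 without it.

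**Figure D1:**
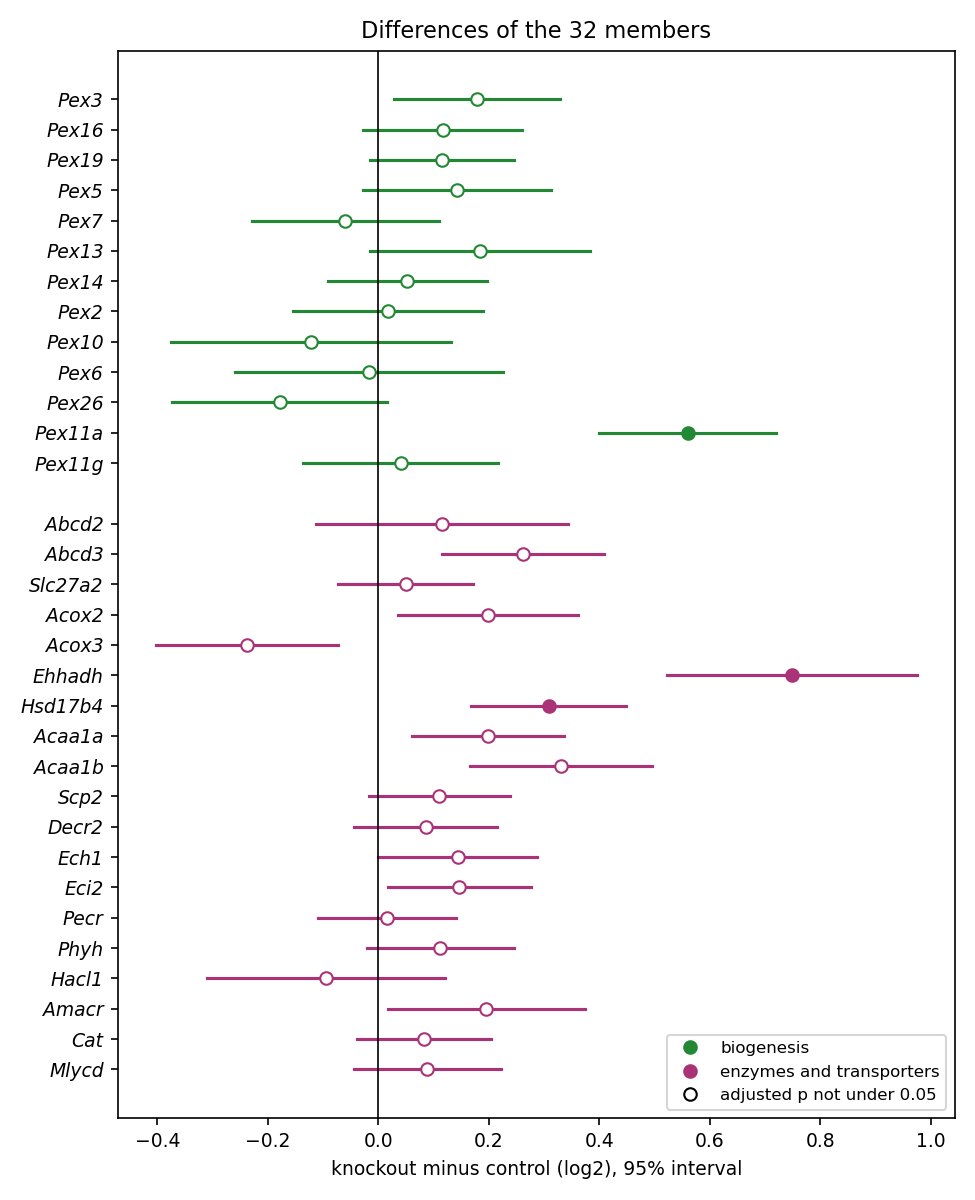
Knockout minus control on the log2 scale (horizontal axis) for each of the 32 genes, with the 95% interval from limma as a line. Peroxins are above the gap and enzymes and transporters below it, and filled points mark an adjusted p under 0.05. Ehhadh, Pex11a and Hsd17b4 are filled, and Acox3 is the lowest point at -0.24.

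Ehhadh had the largest difference of the 32 genes. In set 1 it read 10.43, 10.44 and 10.49 in the controls and 11.16, 11.06, 11.37 and 11.21 in the knockouts. In set 2 it read 11.45, 11.34 and 10.89 in the controls and 11.79, 11.70, 12.11 and 12.31 in the knockouts. Every knockout array lay above every control array of its set. Ehhadh rose by 0.75 ± 0.11 (SE, n = 6 and 8; 1.68-fold; 95% interval 0.52 to 0.97; limma adjusted p = 0.00632), with 0.75 in set 1 and 0.75 in set 2. The call held without any 1 array (limma adjusted p up to 0.0226). Over all 28 alternatives the adjusted p ran from 0.00179 to 0.987, the last without the set term. Hsd17b4 catalyses the same hydration and dehydrogenation steps through the opposite stereoisomer and acts on branched substrates and bile acid intermediates. It read 10.87, 10.97 and 11.05 in set 1 controls and 11.37, 11.32, 11.31 and 11.21 in set 1 knockouts. The set 2 controls read 11.39, 11.53 and 11.31 and the set 2 knockouts 11.75, 11.69, 11.56 and 11.76. The groups did not overlap within a set, and in set 2 the highest control (11.53) and the lowest knockout (11.56) were close. Hsd17b4 rose by 0.31 ± 0.07 (SE, n = 6 and 8; 1.24-fold; limma adjusted p = 0.0439). This call was lost without any of 12 arrays, the exceptions being control 5 and knockout 7 (limma adjusted p up to 0.113), and over all 28 alternatives the adjusted p ran from 0.000616 to 1.

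**Figure D2:**
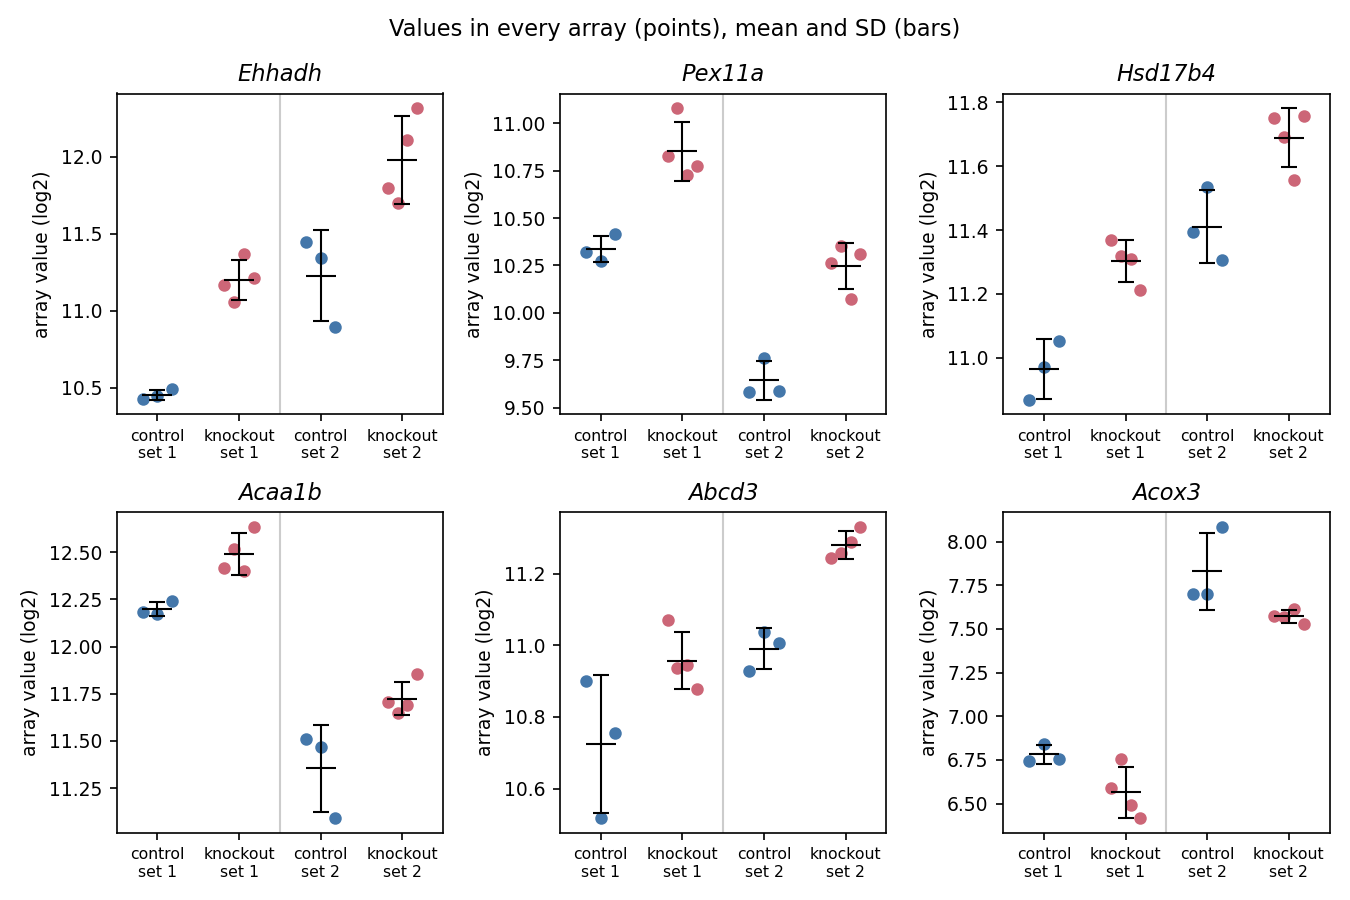
Log2 array values (vertical axes, each with its own range) of 6 members in every array, by group and array set. Points are arrays, and the black bars are the mean and SD of the 3 control or 4 knockout arrays. In 4 panels (Ehhadh, Pex11a, Hsd17b4, Acaa1b) every knockout array lies above the controls of its set, in Abcd3 1 set 1 knockout does not, and in Acox3 7 of 8 knockouts lie below.

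The thiolases perform the last step, which releases acetyl-CoA or propionyl-CoA. Acaa1b, with Acaa1a one of a pair of closely similar thiolase genes of the mouse, read 12.19, 12.17 and 12.24 in set 1 controls and 12.42, 12.52, 12.40 and 12.64 in set 1 knockouts. In set 2 it read 11.51, 11.47 and 11.09 in controls and 11.70, 11.65, 11.69 and 11.85 in knockouts. All 8 knockout arrays were above the controls of their set, and the difference of 0.33 ± 0.08 (SE) did not pass (limma adjusted p = 0.0676). It passed when dim genes were left out of the test (limma adjusted p = 0.0320). It also passed when the prior spread followed the mean level and was estimated robustly (limma eBayes with trend and robust, adjusted p = 0.00185). In that last fit 1.67% of all genes were called, and so were Abcd3 (0.00651) and Acaa1a (0.0224). Over 28 alternatives the adjusted p of Acaa1b ran from 0.00185 to 1. Acaa1a also lay above the controls in 8 of 8 knockout arrays, at 0.20 ± 0.07 (SE; limma adjusted p = 0.230). Whether the probes of either row also read the other's RNA was not tested. Scp2, whose longer product is the thiolase for branched chains and bile acid intermediates, was at 0.11 ± 0.06 (SE; limma adjusted p = 0.566).

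The acyl-CoA oxidases, which open the cycle and release hydrogen peroxide, pointed in opposite directions. Acox2, which oxidises bile acid intermediates and branched chains, was at 0.20 ± 0.08 (SE; limma adjusted p = 0.349), with 0.32 in set 1 and 0.08 in set 2. Acox3, a branched-chain oxidase, read 6.75, 6.84 and 6.76 in set 1 controls and 6.59, 6.76, 6.49 and 6.42 in set 1 knockouts. In set 2 it read 7.70, 7.70 and 8.09 in controls and 7.57, 7.57, 7.62 and 7.53 in knockouts. In 7 of 8 knockout arrays it was below the controls of its set, and knockout 2 overlapped them. Acox3 had the lowest difference of the members, -0.24 ± 0.08 (SE; 95% interval -0.40 to -0.07), which did not pass (limma adjusted p = 0.228).

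Among the proteins that bring substrate in, Abcd3, the most abundant fatty acyl-CoA transporter of the peroxisome membrane in liver, was at 0.26 ± 0.07 (SE; limma adjusted p = 0.117). It read 10.90, 10.52 and 10.76 in set 1 controls and 11.07, 10.94, 10.94 and 10.88 in set 1 knockouts. The set 2 controls read 10.93, 11.04 and 11.01 and the set 2 knockouts 11.24, 11.26, 11.29 and 11.33. Knockout 4 lay below control 1, and the other 7 knockout arrays were above every control of their set. The related transporter Abcd2 was at 0.11 ± 0.11 (SE; adjusted p = 0.793 in limma), and Slc27a2, which activates very long chain fatty acids, at 0.05 ± 0.06 (SE; 95% interval -0.07 to 0.17).

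The enzymes that deal with double bonds were all slightly positive and none passed. Eci2, an enoyl-CoA isomerase, was at 0.15 ± 0.06 (SE; limma adjusted p = 0.402) and was above the controls of its set in 8 of 8 knockout arrays. Ech1, a dienoyl-CoA isomerase also found in mitochondria, was at 0.14, the dienoyl-CoA reductase Decr2 at 0.09 and the enoyl-CoA reductase Pecr at 0.02. In alpha-oxidation, which shortens phytanic acid by a single carbon, the hydroxylase Phyh was at 0.11 ± 0.06 (SE) and the lyase Hacl1 at -0.09 ± 0.10 (SE). Amacr, the racemase that prepares branched acyl-CoA for oxidation, was at 0.20 ± 0.08 (SE; limma adjusted p = 0.420). Mlycd, a malonyl-CoA decarboxylase of several compartments, was at 0.09 ± 0.06 (SE).

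Cat, the catalase that breaks down the hydrogen peroxide of the oxidases, had the brightest row of the 32. It read 12.87, 12.82 and 12.74 in set 1 controls and 12.87, 12.94, 12.86 and 12.90 in set 1 knockouts. The set 2 controls read 13.45, 13.46 and 13.43 and the set 2 knockouts 13.48, 13.57, 13.48 and 13.59. In set 1 knockout 3 lay just below the highest control, in set 2 all knockouts lay just above the controls, and the difference of 0.08 ± 0.06 (SE; 95% interval -0.04 to 0.20) did not pass (limma adjusted p = 0.681). At this brightness a row may respond less than in proportion, which was not tested.

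Of the peroxins, Pex11a was the one that rose. It belongs to the family that elongates and divides peroxisomes and is known as the member induced by peroxisome proliferators. In set 1 it read 10.32, 10.28 and 10.41 in controls and 10.83, 11.08, 10.73 and 10.77 in knockouts. In set 2 it read 9.58, 9.76 and 9.59 in controls and 10.26, 10.35, 10.07 and 10.31 in knockouts. All 8 knockout arrays were above every control of their set. Pex11a rose by 0.56 ± 0.08 (SE, n = 6 and 8; 1.47-fold; 95% interval 0.40 to 0.72; limma adjusted p = 0.00469), with 0.51 in set 1 and 0.61 in set 2. The call held without any 1 array (adjusted p up to 0.0143), and over all 28 alternatives the limma adjusted p ran from 8.93e-06 to 1. Pex11g, the other family member among the 32, was at 0.04 ± 0.08 (SE; 95% interval -0.14 to 0.22).

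No other peroxin passed, and their 95% intervals together spanned -0.38 (Pex10) to 0.38 (Pex13). The factors that insert membrane proteins were all positive: Pex3 at 0.18 ± 0.07 (SE; limma adjusted p = 0.364), Pex16 at 0.12 ± 0.07 and Pex19 at 0.11 ± 0.06. Pex5, the receptor for the C-terminal import signal that most of the enzymes carry, was at 0.14 ± 0.08 (SE). Pex7, the receptor for the N-terminal signal that the thiolases Acaa1a and Acaa1b carry, was at -0.06 ± 0.08 (SE). The docking proteins Pex13 and Pex14 were at 0.18 ± 0.09 and 0.05 ± 0.07 (SE). The factors that recycle the receptors, none of which passed, were the ubiquitin ligase subunits Pex2 (0.02 ± 0.08) and Pex10 (-0.12 ± 0.12), the ATPase Pex6 (-0.02 ± 0.11) and its membrane anchor Pex26 (-0.18 ± 0.09; limma adjusted p = 0.539). Pex10 was the dimmest row of the 32, with a mean of 5.40, below the median of every array. It read 5.44, 5.61 and 5.41 in set 1 controls, 5.29, 5.36, 5.28 and 5.60 in set 1 knockouts, 5.92, 4.99 and 5.45 in set 2 controls and 5.36, 5.10, 5.23 and 5.55 in set 2 knockouts, and the groups overlapped in both sets. The background level is not known here, so this row may not measure the gene.

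The plot of set 1 against set 2 shows each member's difference within the array sets. Of the 19 enzymes 16 were positive in both sets and 2, Acox3 and Hacl1, negative in both. Their median was 0.126 in set 1 and 0.120 in set 2. Of the 13 peroxins 6 were positive in both sets and 2, Pex10 and Pex26, negative in both, with a median of 0.103 in set 1 and 0.015 in set 2. Both peroxin medians lay within their spread between arrays of the median in the reported fit. Pex2 was at 0.17 in set 1 and -0.14 in set 2, and Pex7 at 0.08 and -0.20. The difference between the sets was not called for any member or any other gene (0 genes for the interaction in limma), and its smallest unadjusted p among the members was 0.0516, for Pex2. Every knockout array lay above every control of its set for 5 of the 19 enzymes (Ehhadh, Hsd17b4, Acaa1a, Acaa1b, Eci2) and 1 of the 13 peroxins (Pex11a), against 0.774% of all genes. No member had every knockout below every control, against 0.538% of all genes. With fewer arrays, Ehhadh did not pass in a fit of set 1 alone (limma adjusted p = 0.0960) or set 2 alone (adjusted p = 0.529), nor did Pex11a (adjusted p = 0.292 and 0.47). No test was run between the enzymes and the peroxins as lists, since their members were chosen with earlier results of these data known.

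**Figure D3:**
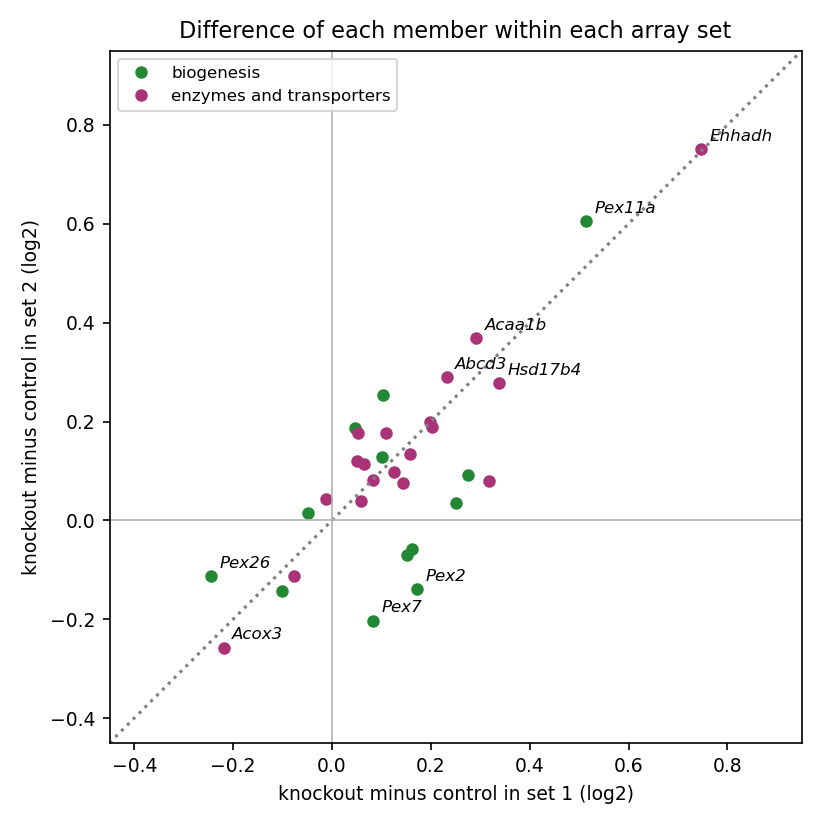
Knockout minus control on the log2 scale within array set 1 (horizontal axis) and within set 2 (vertical axis), 1 point for each of the 32 genes; the dotted line marks equal differences. Ehhadh (0.75 and 0.75) and Pex11a (0.51 and 0.61) are at the upper right, and Pex2 and Pex7 are positive in set 1 and negative in set 2.

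The gap between the array sets was larger in size than the knockout difference for 27 of the 32 members. Set 2 minus set 1, averaged over the groups, ran from -1.09 for Pex7 to 1.20 for Acox2, and exceeded 1 in size for 3 of 32 members (9.38%; the third was Acox3 at 1.03) against 10.83% of all genes. The oxidases Acox2 and Acox3 and the bifunctional enzymes Ehhadh (0.78) and Hsd17b4 (0.42) were higher in set 2. The thiolases Acaa1a (-0.64) and Acaa1b (-0.81), Ech1 (-0.69), Eci2 (-0.65) and the division factors Pex11a (-0.65) and Pex11g (-0.98) were higher in set 1. Within the same classes the thiolase Scp2 (0.27) and the reductase Decr2 (0.29) were higher in set 2, and Pecr (-0.49) in set 1. What the sets stand for is not given in the sources used here.

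Other peroxisomal genes, from a list of 63 of which 59 were measured, showed 3 that rose and none that fell. Among all genes 0.431% were called higher and 0.272% lower. Crat, a carnitine acetyltransferase of peroxisomes and mitochondria that hands acetyl groups on to carnitine, rose by 0.78 ± 0.12 (SE; limma adjusted p = 0.00873). Aldh3a2, a fatty aldehyde dehydrogenase with a peroxisomal form, rose by 0.54 ± 0.07 (SE; limma adjusted p = 0.00493). Acot8, a peroxisomal acyl-CoA thioesterase, rose by 0.38 ± 0.07 (SE; limma adjusted p = 0.0254). All 8 knockout arrays were above the controls of their set for each of the 3 genes, and the Acot8 call was lost without control 1, 2 or 5 or knockout 4 (adjusted p up to 0.0594 in limma). Of the 59 genes 41 were positive and the median was 0.071, against 50.6% and 0.002 for all genes. At an unadjusted p under 0.05 in limma 14 of the 59 were higher and 3 lower. The shares of all genes were 5.53% higher and 4.83% lower, so the count of lower genes was near the share of all genes. The lower ones were Idi1 (-0.70 ± 0.21, SE), Pmvk (-0.43 ± 0.11) and Mpv17l (-0.29 ± 0.11). With a robust prior spread that followed the mean level, 10 genes of this list passed, Pmvk among them (limma adjusted p = 0.0178).

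Mitochondrial beta-oxidation, the parallel pathway for shorter chains, had 15 of 16 measured genes positive, with a median of 0.156 and 2 that rose. Among all genes 50.6% were positive and 0.431% were called higher. At an unadjusted p under 0.05 in limma 8 of the 16 were higher and none lower, against 5.53% and 4.83% of all genes. Every knockout array lay above every control of its set for 5 of the 16, against 0.774% of all genes. Cpt1a, the carnitine palmitoyltransferase that admits fatty acids to mitochondria, rose by 0.36 ± 0.07 (SE; limma adjusted p = 0.0253, up to 0.0709 without 1 of control 1, 2 or 4 or knockout 1). Slc25a20, the carnitine-acylcarnitine carrier, rose by 0.31 ± 0.06 (SE; limma adjusted p = 0.0389, up to 0.0953 without 1 array, the call being kept only without knockout 5). The mitochondrial median was above those of the peroxisomal enzymes (0.115) and the peroxins (0.052), and these differences were not tested. Of 9 measured genes for PPAR alpha, its partner receptors and cofactors 0 passed in limma (2 higher and 1 lower at an unadjusted p under 0.05), and their median was -0.009. The largest positive differences were 0.21 ± 0.07 for Ppara itself (SE, limma adjusted p = 0.217) and 0.20 ± 0.06 for Creb3l3, a fasting-responsive transcription factor of the liver. The largest negative ones were -0.22 ± 0.09 for Lpin1, a coactivator of PPAR alpha, and -0.13 ± 0.13 for the coactivator Ppargc1a. Creb3l3 lay above every control of its set in 8 of 8 knockout arrays and Ppara in 4 of 8, and Lpin1 lay below in 7 of 8. When the prior spread followed the mean level and was estimated robustly, Ppara (limma adjusted p = 0.0237) and Creb3l3 (limma adjusted p = 0.00783) passed. In that fit 1.67% of all genes were called.

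**Figure D4:**
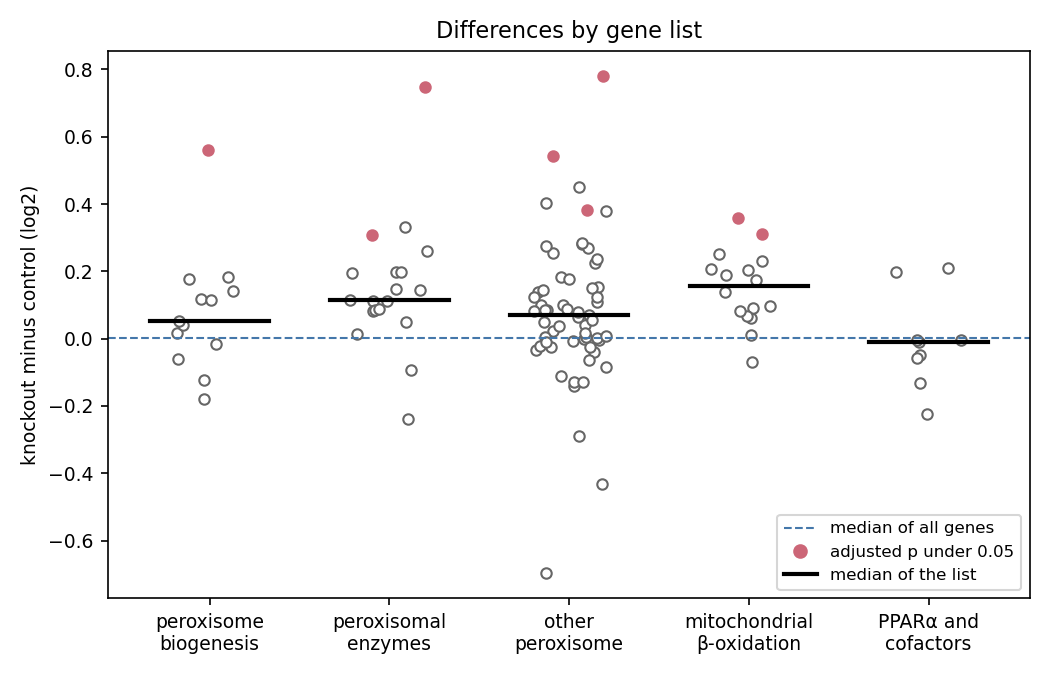
Knockout minus control on the log2 scale (vertical axis) for every measured gene of 5 lists; the horizontal spread within a list carries no value. Filled points have a limma adjusted p under 0.05, black bars are list medians, and the dashed line is the median of all genes. The list medians are 0.052 for peroxins, 0.115 for peroxisomal enzymes, 0.071 for other peroxisomal genes, 0.156 for mitochondrial beta-oxidation and -0.009 for PPAR alpha and cofactors.

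Promoter windows from RefSeq (GRCm38.p6, 250 bases before to 50 after each start site) were matched for 27 of the 32 members, 11 peroxins and 16 enzymes. Pex2, Pex19, Hsd17b4, Abcd2 and Amacr were not matched. The windows differed in CpG content, the CpG count relative to that expected from the C and G counts, which is high in the promoters of broadly expressed genes. A ratio over 0.6 was found for 9 of 11 peroxins and 8 of 16 enzymes, against 49.5% of all 15691 measured genes with a window, with medians of 0.840, 0.601 and 0.594. Pex11a (0.527) and Pex26 (0.523) were the 2 peroxins below 0.6. The windows of Pex11a and Ehhadh, the members whose calls held without any 1 array, of Pex11g, the Pex11a relative with a difference near 0, and of Acaa1b are shown, with CpG in capitals. They lie at chr7:79743082-79743381 (minus strand), chr16:21787785-21788084 (minus strand), chr8:3467599-3467898 (minus strand) and chr9:119157044-119157343 (minus strand), and hold 13, 14, 19 and 4 CpG.
Pex11a: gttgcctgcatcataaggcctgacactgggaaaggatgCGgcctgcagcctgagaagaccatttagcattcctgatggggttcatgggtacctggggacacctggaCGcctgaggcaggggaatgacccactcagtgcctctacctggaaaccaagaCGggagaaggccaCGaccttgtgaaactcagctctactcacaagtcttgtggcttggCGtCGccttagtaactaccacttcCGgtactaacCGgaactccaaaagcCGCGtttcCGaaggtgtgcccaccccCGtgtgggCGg
Ehhadh: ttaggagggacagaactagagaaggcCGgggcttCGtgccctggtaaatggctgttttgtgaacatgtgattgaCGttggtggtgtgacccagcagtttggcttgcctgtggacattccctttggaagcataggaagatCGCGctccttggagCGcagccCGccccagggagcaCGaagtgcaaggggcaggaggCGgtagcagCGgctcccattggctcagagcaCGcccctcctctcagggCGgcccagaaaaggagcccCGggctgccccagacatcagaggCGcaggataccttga
Pex11g: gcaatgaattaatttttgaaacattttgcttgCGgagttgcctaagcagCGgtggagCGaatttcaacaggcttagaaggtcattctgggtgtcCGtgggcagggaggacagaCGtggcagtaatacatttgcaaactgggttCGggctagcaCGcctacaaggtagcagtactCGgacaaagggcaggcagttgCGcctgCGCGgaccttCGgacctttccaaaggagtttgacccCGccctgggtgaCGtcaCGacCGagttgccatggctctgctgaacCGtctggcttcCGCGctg
Acaa1b: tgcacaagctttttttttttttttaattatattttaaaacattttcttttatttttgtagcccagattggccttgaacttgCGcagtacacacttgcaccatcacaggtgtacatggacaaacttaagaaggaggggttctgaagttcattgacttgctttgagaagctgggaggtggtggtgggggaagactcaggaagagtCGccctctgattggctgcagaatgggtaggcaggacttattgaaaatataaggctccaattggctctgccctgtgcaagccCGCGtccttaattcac

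In Pex11a most CpG are toward the right end of the window, around the start site, and in Acaa1b the window is nearly free of them. Among the 10 members with a ratio at or under 0.6 the median difference was 0.172 and 9 were positive, and among the 17 with a higher ratio it was 0.052 and 12 were positive. The 10 were 8 enzymes and 2 peroxins and the 17 were 8 enzymes and 9 peroxins, so ratio and role overlapped. Among enzymes alone the medians were 0.172 and 0.069. The 2 peroxins with the lower ratio were at 0.56 (Pex11a) and -0.18 (Pex26), and the other 9 had a median of 0.052. Over all measured genes with a window the medians were -0.005 at or under 0.6 and 0.011 above it. This split was made after the values were seen and was not tested.

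**Figure D5:**
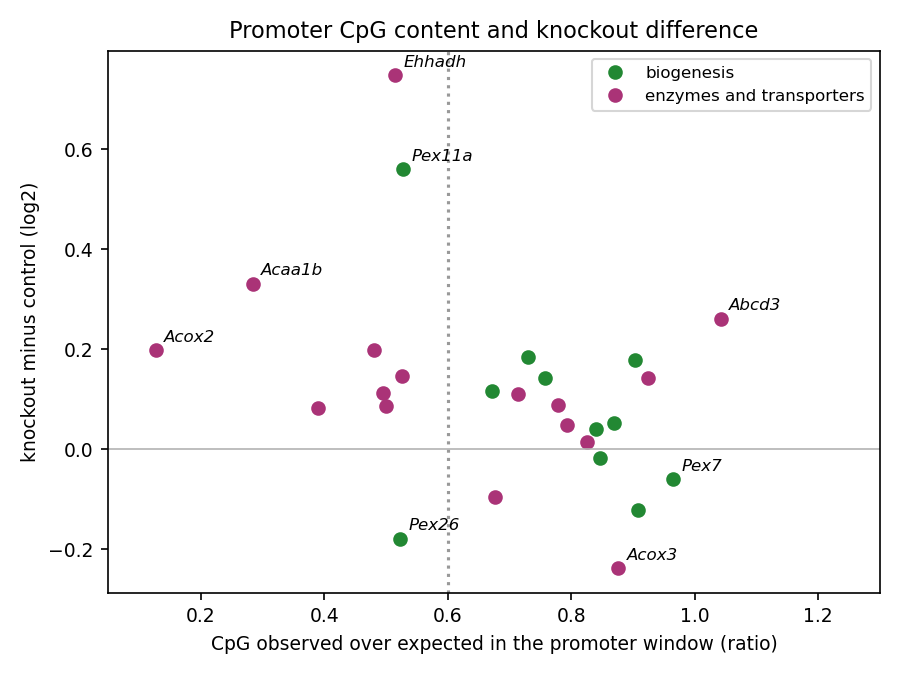
Ratio of observed to expected CpG in the promoter window (horizontal axis) and knockout minus control on the log2 scale (vertical axis) for the 27 members with a window; the dotted line marks a ratio of 0.6. Ehhadh (0.515) and Pex11a (0.527) are left of the line at the top, and most peroxins are to the right of it near 0.

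The windows were also searched on both strands for 2 copies of AGGTCA in direct repeat with any 1 base between them, the kind of element that PPAR alpha binds with its partner RXR, allowing up to 2 mismatches in the copies. A match was found in 2 of 16 enzymes (12.5%) and 0 of 11 peroxins, against 3.98% of the 15691 measured genes with a window. With up to 1 mismatch no member matched, against 0.56% of measured genes, and with up to 3 mismatches 5 enzymes (31.25%) and 1 peroxin (9.09%) matched, against 25.82%, so the share of enzymes rests on 2 genes at 1 setting. The matches, with agreeing letters in capitals, were in Cat at chr2:103485345-103485357 and in Acox2 at chr14:8258818-8258830.
Cat: AGGTCAgAGaaCA
Acox2: AGGaCAgAGGTgA

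Neither Cat nor Acox2 passed in the knockout comparison, and neither Ehhadh nor Pex11a held such a match in these 300 bases. Sites farther from the start were not searched.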

How the data were processed

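Liver RNA of 6 control and 8 knockout samples was hybridised to Affymetrix arrays after WT PLUS labelling, per the labels. The deposited values are log2 signals, 1 row per transcript cluster: RMA and Partek stand in the submitters' processing notes with no version, and the log2 scale was inferred from the values (2.13 to 13.77). They were used as deposited, without further normalization. Arrays give no read depth, so the number of arrays limits the precision. Of 22206 rows 19572 had 1 gene symbol in the platform annotation, and for 55 genes with several rows the brightest stood for the gene. All 19505 genes were tested, dim ones included.

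The 2 array sets were found by average-linkage clustering of the array correlations. Groups were compared in limma 3.58.1 under R 4.3.3 (lmFit, eBayes) with the set as a term. Benjamini-Hochberg adjustment ran over all genes, and 0.05 was the threshold. The fit was tested on simulated data with noise independent between arrays and changes larger than those of most members. That test cannot speak to repeated mice or to smaller differences. The members, the lists, the set term and the alternatives were chosen with earlier results of these data known. Every member is named. Array values are given for the members past the threshold, those with the next smallest p up to 6 genes, and the brightest and dimmest row. Of the other pathway lists the genes past the threshold are named, or the 2 largest differences in each direction where none passed. No 2 arrays held identical values. In the labels, knockout 7 and 8 carry the description numbers of knockout 5 and 6, and both were kept, with alternatives that average or leave them out.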

Additional observations from a re-analysis of the deposited data

How the results depend on the processing

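The medians of the peroxins and of the enzymes stayed positive under all 28 alternatives and moved by less than their spread between arrays (0.060 and 0.041). Ehhadh and Pex11a passed in 24 alternatives each and Hsd17b4 in 7; Ehhadh and Pex11a missed the threshold without the set term, in each set alone and with the replicate block. Calls are given below in the order peroxins, enzymes, other peroxisomal genes, mitochondrial beta-oxidation and all genes, which were 1, 2, 3, 2 and 137 in the reported fit. Without the set term all were 0, and within set 1 or set 2 alone they were 0, 0, 0, 0 and 2; these fits have fewer arrays or a wider spread. With the set as a random block the counts of enzymes, mitochondrial and all genes were 1, 0 and 39. Leaving out 1 array gave 1 peroxin, 1 to 2 enzymes, 0 to 2 mitochondrial genes and 44 to 132 genes in all. The total moved by over 1.5 times without any array except control 3, control 6 and knockout 6. Without control 1 and control 4 the 5 counts were 1, 1, 1, 0 and 26, with knockout 5 averaged with 7 and 6 with 8 the enzymes, mitochondrial and all-gene counts were 1, 1 and 67, and without knockout 7 and 8 the counts were 1, 1, 1, 0 and 12. Leaving out genes with a mean under 5 gave 7 other peroxisomal genes and 222 in all, quantile normalization gave 1 enzyme, and eBayes with trend and robust gave 5 enzymes (Abcd3, Acaa1a, Acaa1b, Ehhadh, Hsd17b4), 10, 5 and 325. The cause of these shifts was not tested.

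No pairing by replicate number was seen: correlations of same-numbered deviations were 0.023 to 0.087, and no control correlated best with the knockout of its number. The deviations were taken from means of only 3 control or 4 knockout arrays, so they cannot decide whether the samples were paired. With the replicate block beside the set the counts were 0, 0, 0, 0 and 2.

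Signs changed only for differences near 0 that were not called. In set 1 alone Pex7 was at 0.083 and Pecr at -0.012, and in set 2 alone Pex2 was at -0.139, Pex6 at 0.015, Pex11g at -0.07 and Pex14 at -0.057. Leaving out 1 array gave -0.007 to 0.072 for Pex2, -0.067 to 0.05 for Pex6, -0.004 to 0.035 for Pecr and -0.001 to 0.075 for Pex11g. Without control 1 and control 4 Pex6 was at 0.009 and Hacl1 at 0.042, with the replicate block Hacl1 at 0.01, with quantile normalization Pex2 and Pecr at -0.002 each, and with array weights Pex6 at 0.004.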
